A study of Mus musculus with 27 samples.

Results

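Of the 23279 genes listed in the deposited expression table, 8 are described here: the segmentation clock genes Hes7, Lfng, Dll1, Dll3, Mesp1, Mesp2, Ripply2 and Nrarp, chosen by name and known role. No measured value entered the rule, though earlier results of these data were known when it was set. The study made limb bud-like tissues from mouse ES cells and compared their RNA with that of embryonic tissues. Of 27 libraries in 9 groups of 3, 26 were used, because 1 library of the E10.5 hindlimb buds holds no values on several chromosomes. That group therefore has 2 libraries (replicates 1 and 3), and every other group has 3.

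The embryonic groups came from Slc:ICR mice: tail bud (TB), branchial arch (BA), cardiac tissue (Ca), forelimb buds (E10.5 FLB) and hindlimb buds (E10.5 HLB), all at E10.5, and early forelimb and hindlimb buds (early FLB, early HLB), both labelled E10.0. The paper places the early FLB at an earlier stage than the early HLB. Tissues were cut from 3 embryos and no sorting is named, so each library can hold ectoderm, vessels, nerve and muscle precursors beside mesenchyme. The ES-FLB and ES-HLB libraries came from cells of 1 EB5-derived ES line that carries GFP in 1 copy of Hand2, a gene of limb bud mesenchyme. Both received BMP4 and Matrigel on days 1 to 5 and, by the labels, the BMP inhibitor LDN193189 and Wnt3 stepwise on days 7 to 9. The paper gives other days for both. ES-FLB were given retinoic acid (RA) on days 5 to 6, ES-HLB an RA antagonist on days 6 to 6.5, and Hand2::GFP-positive cells of pooled aggregates were sorted on day 9. Nothing in the labels says whether replicates are separate cultures or litters, so p-values measure the spread between these libraries, which may be technical.

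Somites form in pairs from the presomitic mesoderm, the tissue that the tail bud feeds while the body axis grows. In its cells a Notch-driven oscillator is switched on and off with each new somite: the repressor Hes7 shuts down its own gene and that of the glycosyltransferase Lfng, which modifies Notch receptors. Where the oscillation stops, Mesp2 sets the position of the next border and Ripply2 ends its action. The same Notch components are known outside somites, in neurogenesis, in vessels and in muscle precursors. Limb bud mesenchyme does not come from the presomitic mesoderm but from the lateral plate.

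The stretches before the annotated starts of Hes7, Lfng and Nrarp are shown because these genes are known as targets of Notch and its effector Rbpj, and because the libraries below set them apart from one another. They are from RefSeq on GRCm38.p6, the assembly also called mm10, which the authors mapped to, and run 5′ to 3′ on the gene's strand. Capitals mark matches, on either strand, to the Rbpj core TGGGAA and to the N-box CACNAG, to which Hes repressors are known to bind.
Hes7, chr11:69120203-69120452, plus strand: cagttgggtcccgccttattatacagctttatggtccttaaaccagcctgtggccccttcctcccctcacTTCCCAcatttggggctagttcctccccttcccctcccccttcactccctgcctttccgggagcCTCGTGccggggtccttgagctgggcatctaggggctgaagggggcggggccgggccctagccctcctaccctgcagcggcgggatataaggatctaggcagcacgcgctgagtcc
Lfng, chr5:140607091-140607340, plus strand: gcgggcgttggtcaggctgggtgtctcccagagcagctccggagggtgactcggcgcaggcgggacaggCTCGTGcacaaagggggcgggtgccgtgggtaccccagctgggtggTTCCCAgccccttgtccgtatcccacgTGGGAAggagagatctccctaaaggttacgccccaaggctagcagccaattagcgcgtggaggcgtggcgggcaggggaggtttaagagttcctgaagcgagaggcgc
Nrarp, chr2:25180508-25180757, plus strand: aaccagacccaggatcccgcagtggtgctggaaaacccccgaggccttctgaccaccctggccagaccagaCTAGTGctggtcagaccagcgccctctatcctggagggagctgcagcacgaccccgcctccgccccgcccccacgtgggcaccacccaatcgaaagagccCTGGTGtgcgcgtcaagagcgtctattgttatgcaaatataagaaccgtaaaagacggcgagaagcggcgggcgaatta
The Rbpj core occurred at positions -135 and -108 of Lfng and -180 of Hes7, counted so that -1 is the base before the start, and no match lay in the Nrarp window. The N-box occurred at -116 in Hes7, at -181 in Lfng and at -179 and -79 in Nrarp, and matches to different motifs did not overlap. RefSeq begins the Hes7 gene record upstream of this window (chr11:69118906-69124054), so the window belongs to a later start. Over windows of 250 bases before to 50 after the start, the Rbpj core was present in 25.6% of 32851 promoters and the N-box in 42.5%. The members have 9 such windows, of which 2 hold the Rbpj core and 4 the N-box. Lfng itself lies at chr5:140607341-140615545 and Nrarp at chr2:25180758-25183339, both on the plus strand. Of the members shown without sequence, Dll1 lies at chr17:15367354-15376932 and Dll3 at chr7:28293555-28301785, both on the minus strand, and Ripply2 at chr9:87015537-87020441 on the plus strand.

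For Mesp1 (chr7:79792241-79793590, minus strand) and Mesp2 (chr7:79810727-79813431, plus strand), which are known targets of the T-box factor Tbx6, the T-box core CACACCT, searched on both strands, is shown in capitals with its surroundings.
Mesp1, chr7:79793568-79793594, minus strand: gggcccgcttCACACCTagggctcagg
Mesp2, chr7:79810745-79810771, plus strand: ggtcagaatcCACACCTctgcaaatgg
These matches begin at base 7 of Mesp1 and base 29 of Mesp2 after the start, and the other member windows hold none. The core was present in 5.84% of all promoter windows. Matches of this kind describe the letters and not binding.

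Levels are given as scaled CPM, the deposited CPM (reads of a gene per 1000000 reads of the library) divided by a scaling factor of each library. The 26 libraries hold 5543747 to 22142313 reads, estimated from the size of the lowest value step. Depth was greatest for the early limb buds (19642275 to 22142313) and least for those of E10.5 (5543747 to 5908859). A count of 0 allows up to 3 reads, which is 0.149 to 0.544 scaled CPM depending on the library. These floors cover counting error only. Overlapping genes on the opposite strand share exon bases with Hes7 (234 bases, 9130213A22Rik), Dll1 (867 bases, A930024N18Rik) and Nrarp (2051 bases, Gm38287). Libraries were stranded, but whether counting used the strand is not given in the sources used here, so reads of these partners cannot be told apart from those of the members.

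All 8 genes had their highest level in TB, and for every one of them the lowest TB library lay above the highest of the 23 other libraries. The share of all genes that stand apart from every other library in this way was not counted, so the count of 8 is a description. A looser measure was counted: over all genes tested, 19.2% to 38.7% were called higher in TB in single comparisons with other groups (limma, given below one by one). Dll1, the ligand that activates Notch in neighbouring cells, was at 109, 108 and 113 scaled CPM in TB replicates 1, 2 and 3. Dll3, a divergent ligand that does not activate Notch and acts inside the cell, was at 63.9, 66.3 and 63.9. The TB values of each ligand lay within a few percent of each other (CV 2.30% for Dll1 and 2.14% for Dll3). Outside TB the ligands parted. Dll1 was next highest in Ca, at 16.8, 12.8 and 16.0, whereas Dll3 was at 0, 0.421 and 0.137 in the same 3 libraries. No other group came near Ca for Dll1, since the next, E10.5 FLB, ranged from 3.30 to 5.90. Dll3 reached its highest value outside TB in BA, at 2.14 scaled CPM.

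The modulators of Notch signalling followed. Lfng was at 52.1, 56.4 and 53.4 scaled CPM in TB, and Nrarp, a small ankyrin repeat protein that Notch induces and that damps Notch, at 85.2, 86.8 and 83.4. Nrarp was the member least limited to TB: its TB mean was 2.84 times the highest other library, against 5.19 for Lfng, 6.54 for Dll1 and 30.3 for Dll3. After TB, Nrarp followed the order E10.5 FLB (27.4 ± 2.45, SD, n = 3), E10.5 HLB (26.8 ± 1.66, n = 2), BA (19.5 ± 2.41), early HLB (15.8 ± 1.84), Ca (15.1 ± 1.00), early FLB (8.87 ± 0.606), ES-HLB (8.26 ± 0.766) and ES-FLB (3.69 ± 0.257). Neighbours in this order whose libraries overlapped were both E10.5 limb buds, BA with early HLB, early HLB with Ca, and early FLB with ES-HLB. Lfng was next highest in BA (8.62 ± 2.19) and E10.5 FLB (8.24 ± 1.64), overlapped from there down to the early limb buds (4.11 ± 0.644 and 4.08 ± 0.432), and was lowest in ES-HLB (2.01 ± 0.125) and ES-FLB (1.04 ± 0.303).

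Hes7, the oscillating repressor at the centre of the clock, was at 15.7, 16.97 and 13.4 scaled CPM in TB, or 126, 146 and 117 reads. Elsewhere Hes7 ranged from 0 to 1.17, and the other 8 groups formed one overlapping series headed by Ca (1.17, 0.982 and 0.410). Mesp2, the transcription factor of the forming border, was at 4.99, 6.16 and 7.78 in TB. Ripply2, which ends Mesp2 action, was at 3.87, 3.72 and 3.66, and Mesp1, the neighbour and relative of Mesp2, at 1.87, 1.63 and 1.14. Reads behind these values are few, with 40, 53 and 68 for Mesp2, 31, 32 and 32 for Ripply2, and 15, 14 and 10 for Mesp1. Outside TB the 3 border genes were close to absence of reads. Mesp1 had 0 reads in 21 of 23 libraries and 1 read in each of the other two, in Ca and ES-HLB. Ripply2 had 0 in 18 of 23, and the only groups with more than 1 read were the early limb buds, with 5 reads in FLB and 3 in HLB. These are also the deepest libraries. Their means, 0.0853 and 0.0506 scaled CPM, lie under the lowest floor of any library (0.149), so levels of the other groups cannot be set below them. Mesp2 had 1 to 8 reads in each group, and no library above 0.421.

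**Figure D1:**
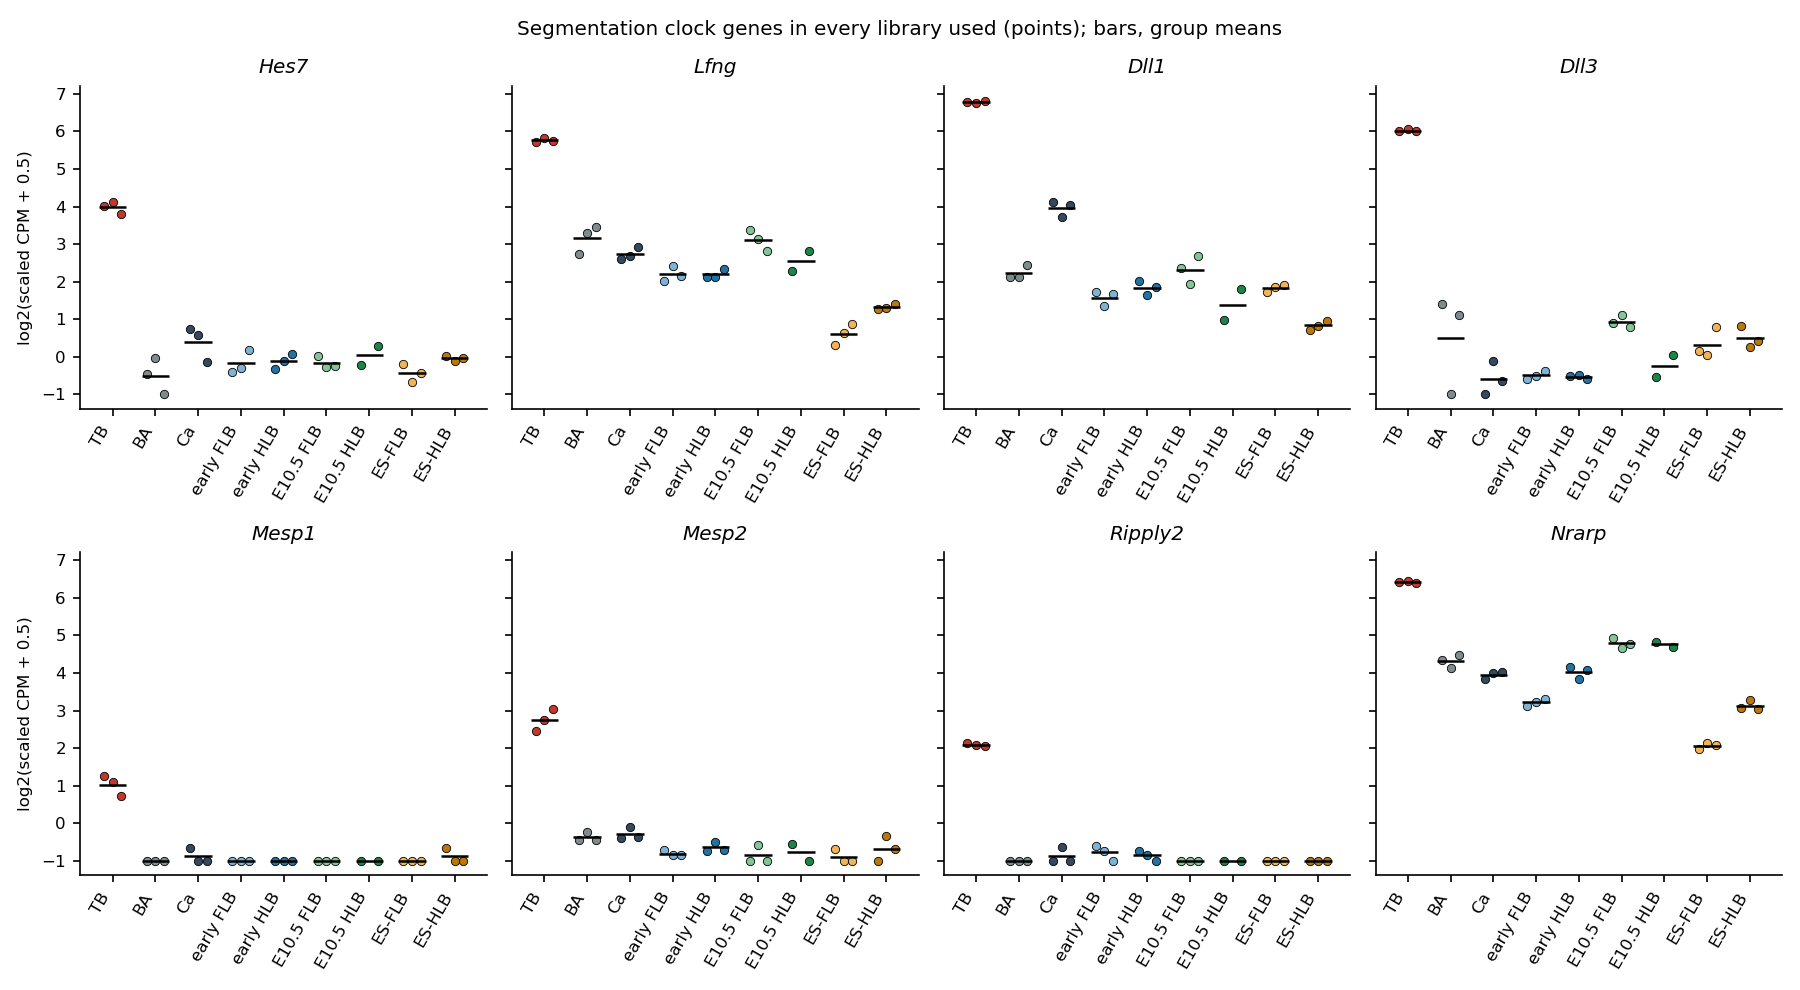
Level of each of the 8 genes, log2(scaled CPM + 0.5), in every library used (points) of 9 groups, with the group mean as a bar. TB stands above all other libraries for every gene, Nrarp and Lfng keep a clear level elsewhere, and Mesp1, Mesp2 and Ripply2 lie at or near the bottom of the axis (-1, no reads) outside TB.

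Divided by transcript length, which allows levels of different genes to be compared, the order in TB was Nrarp (33.0 ± 0.661 scaled CPM per kb, SD, n = 3), Dll1 (30.7 ± 0.706), Dll3 (24.7 ± 0.529), Lfng (23.4 ± 0.942), Hes7 (8.49 ± 1.00), Ripply2 (7.45 ± 0.210), Mesp2 (3.25 ± 0.721) and Mesp1 (1.21 ± 0.290). Lengths are those of the longest transcript matched to the gene, from 503 bases for Ripply2 to 3581 for Dll1. Neighbours in this order whose spread overlaps are Dll3 with Lfng and Hes7 with Ripply2. On this scale the ligands and modulators thus lay above Hes7, and Hes7 and Ripply2 above both Mesp genes.

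The first question of the design was how TB differs from each other E10.5 tissue and from the ES-derived cells. All 8 genes were called higher in TB (limma, adjusted p under 0.05) against BA, Ca, E10.5 FLB, E10.5 HLB and the ES-derived cells (the average of both groups). Of 14432 genes tested, 22.4% were called higher and 22.1% lower against BA, 37.8% and 35.7% against Ca, 23.3% and 22.3% against E10.5 FLB, 19.2% and 19.9% against E10.5 HLB, and 38.7% and 37.4% against the ES-derived cells. Against E10.5 HLB, 49.2% of the calls were higher in TB, and 66.2% with the CPM as deposited. That scaling moved the median of all genes by 0.13 against Ca. The filter asked for 1 scaled CPM in 3 libraries, and Hes7, Mesp1, Mesp2 and Ripply2 met it only through TB, so for these 4 the call could hardly have gone otherwise and the count of 8 is not read against these shares. Without any 1 TB library Mesp1, Mesp2 and Ripply2 missed the filter and 5 genes were called, whichever was left out. The 5 comparisons share the TB libraries and are given side by side.

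For Dll1 the log2 fold change was 4.56 ± 0.19 (SE) against BA, 2.82 ± 0.19 against Ca, 4.47 ± 0.19 against E10.5 FLB, 5.40 ± 0.21 against E10.5 HLB and 5.45 ± 0.17 against the ES-derived cells. Dll1 was thus 7.23-fold higher in TB than in Ca by the group means, and 26.1-fold higher than in BA. For Lfng it was 2.61 ± 0.19, 3.03 ± 0.19, 2.66 ± 0.19, 3.22 ± 0.21 and 4.80 ± 0.16 in the same order. Nrarp had the smallest differences from the embryonic tissues among the members with reads in every library, at 2.10 ± 0.11, 2.46 ± 0.11, 1.62 ± 0.11 and 1.65 ± 0.12, and stood at 3.82 ± 0.09 against the ES-derived cells. Adjusted p of Dll1, Lfng and Nrarp was at most 5.88e-13 in these comparisons. In Ca, where Dll1 was next highest, the 8 endothelial markers summed to 946 to 1013 scaled CPM, above every other group, and the 6 heart muscle markers to 10167 to 12212. The part of either cell type in the Dll1 level was not tested. Heart muscle markers summed to at most 14.7 in any library outside Ca.

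For Dll3 the log2 fold change on the same scale, log2(scaled CPM + 0.5), was 5.52 ± 0.38 against BA, 6.62 ± 0.38 against Ca, 5.10 ± 0.38 against E10.5 FLB, 6.28 ± 0.42 against E10.5 HLB and 5.61 ± 0.33 against the ES-derived cells (adjusted p at most 1.97e-11). Its BA libraries did not agree, with 2.14 scaled CPM (19 reads) in replicate 1, 1.65 (14 reads) in replicate 3 and 0 in replicate 2. Without BA replicate 2 the BA mean rose from 1.26 to 1.90 scaled CPM and the log2 fold change of TB was 4.77 (adjusted p 1.14e-15, range over all alternatives 3.16e-21 to 0.00455). BA replicate 2 was also the lowest in the 11 neural markers, which summed to 51.9 scaled CPM there and to 207 and 122 in replicates 1 and 3. Counted over all genes, 19 were in replicate 2 under 15% of both other BA libraries, Dll3 and the neuronal genes Pou4f1, Snap25, Stmn3 and Prph among them, against 3 in replicate 1 and 1 in replicate 3. The part of neural tissue in the Dll3 level was not tested. In bulk samples, fewer cells of a type and less RNA per cell cannot be told apart.

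For the low genes the fold is given from the levels, since a fitted value depends on the 0.5 added before the logarithm. Hes7 was 66.8-fold higher in TB than in BA, 17.97-fold than in Ca, 38.8-fold than in E10.5 FLB, 28.7-fold than in E10.5 HLB, 62.5-fold than in ES-FLB and 32.7-fold than in ES-HLB, with 6 to 19 reads behind each of the lower values. Mesp2 was 23.4-fold higher than in BA and 19.8-fold than in Ca. Against E10.5 FLB, with 1 Mesp2 read in the group, the ratio was 112 (exact 95% counting interval 19.9 to 4463), and against ES-HLB, with 3 reads, 49.4 (16.6 to 242). Ripply2 had no reads in BA, either E10.5 limb bud or either ES-derived group. Measured against the highest floor of 3 reads of a library in the group, Ripply2 was at least 10.6-fold higher in TB than in BA, at least 7.21-fold than in E10.5 FLB, at least 6.89-fold than in E10.5 HLB, at least 9.61-fold than in ES-FLB and at least 8.88-fold than in ES-HLB. Mesp1 was at least 4.37-fold higher than in BA and at least 2.97-fold, 2.84-fold and 3.97-fold than in E10.5 FLB, E10.5 HLB and ES-FLB. For Mesp1 in Ca and in ES-HLB, with 1 read each, the ratios were 34.0 (5.76 to 1378) and 35.9 (6.08 to 1454).

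**Figure D2:**
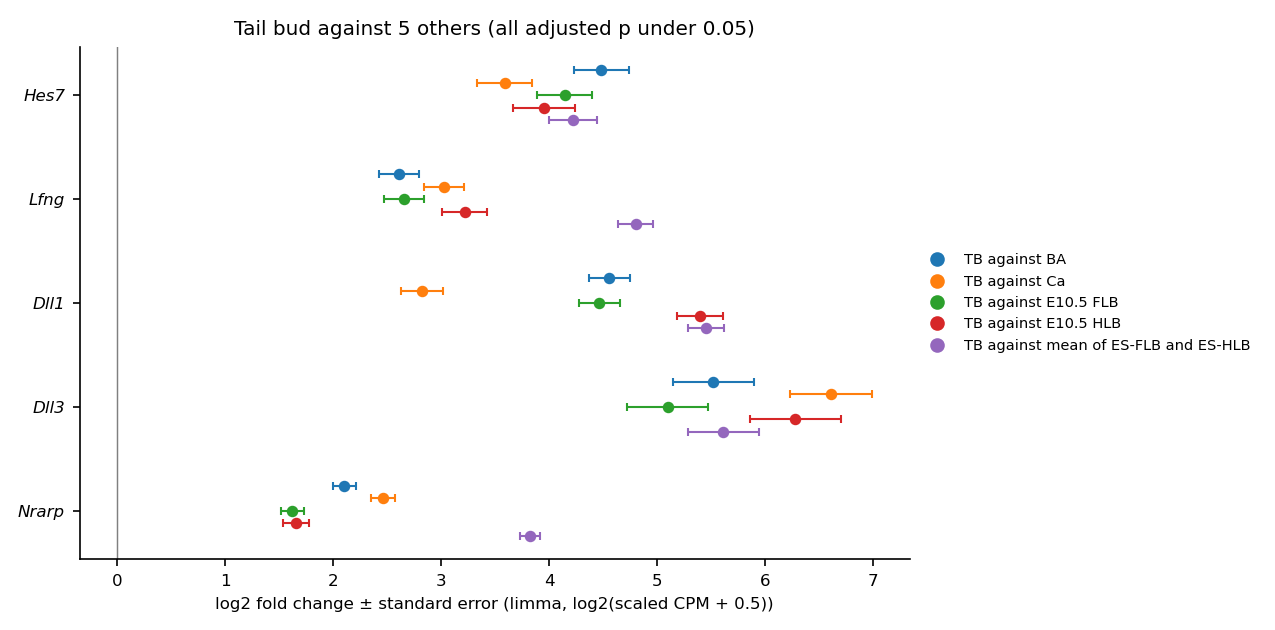
Log2 fold change of TB against BA, Ca, E10.5 FLB, E10.5 HLB and the mean of the ES-derived groups (colours) with its standard error, for Hes7, Lfng, Dll1, Dll3 and Nrarp. All values are above 0, on the log2(scaled CPM + 0.5) scale, with Dll3 between 5.10 and 6.62 and Nrarp between 1.62 and 3.82.

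The label of TB was checked with genes of the presomitic mesoderm and tail bud. The 8 listed genes, among them Tbx6, a T-box factor of presomitic mesoderm, and Msgn1, a factor of presomitic cells, summed to 266 to 320 scaled CPM in TB and to at most 63.2 elsewhere. Tbx6 was at 47.3 ± 5.81 (SD, n = 3) in TB and Msgn1 at 24.6 ± 4.44, and Msgn1 had no reads in BA, Ca, the E10.5 limb buds or the ES-derived cells. Of the 8, 7 were called higher in TB than in BA, with Fgf8, a growth factor of the tail bud and of the limb bud ridge, at 0.07 ± 0.19. Against E10.5 HLB 7 were higher, and Fgf8 was lower by -1.92 ± 0.22. All 8 were higher than in the ES-derived cells. Over all genes, 22.4% were called higher in TB against BA, 19.2% against E10.5 HLB and 38.7% against the ES-derived cells. Listed genes without reads in a compared group could hardly have been called otherwise, as Msgn1 and Cdx2 in BA or Msgn1 and Wnt3a in E10.5 HLB. The counts are therefore descriptions and are not read against these shares. The median log2 difference of the list was 4.82 against BA, 5.54 against E10.5 HLB and 4.85 against the ES-derived cells, beside medians over all genes of at most 0.01 in size. The 6 branchial arch mesenchyme markers summed to 484 to 496 in BA and to at most 105 elsewhere, and the 8 limb mesenchyme markers to 833 to 1594 in the limb buds and ES-derived cells, 1062 to 1109 in BA and 172 to 206 in TB. The 6 surface ectoderm markers summed to 95.4 to 418 over all libraries.

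TB libraries also held somites and neural tissue. The 12 somite formation genes summed to 893 to 903 scaled CPM in TB, led by Meox1, a homeobox factor of somites, at 309 ± 10.7, with Uncx, a gene of the posterior part of each somite, at 41.3 ± 2.06. Of 11 tested, 10 were higher in TB than in BA and 1 lower, and Ripply1, the relative of Ripply2, was at 0.787 ± 0.545 and not tested. Over all genes, 22.4% were called higher and 22.1% lower. Cer1 had no reads in Ca, early FLB or the E10.5 limb buds, and genes so low outside TB could hardly have been called otherwise. The somite count is therefore a description and is not read against these shares. The neural markers summed to 162 to 196, with Sox1 at 15.7 ± 1.85, Pax6 at 24.4 ± 0.589 and the neurogenic factor Neurog2 at 22.4 ± 2.94. BA libraries summed to 51.9 to 207 on this list, so its sum is not particular to TB. Of the 11 neural markers, 5 were higher in TB than in BA and 3 lower (Neurod1, Tubb3 and Stmn2). Muscle precursor markers summed to 113 to 130, of which Pax3, a gene also of the dorsal neural tube, took the most. Levels of the 8 members in TB therefore sum over these tissues, and the part of each was not tested.

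Of 21 other Notch pathway genes, 10 were higher and 4 lower in TB than in BA (median 0.10), beside 22.4% and 22.1% of all genes. Against E10.5 HLB 8 were higher and 3 lower (0.03), beside 19.2% and 19.9%. Against the ES-derived cells 10 were higher and 6 lower (0.10), beside 38.7% and 37.4%. The 4 lower than in BA were Notch3 (-0.33 ± 0.08), Jag2 (-0.32 ± 0.10), Maml1 (-0.20 ± 0.05) and Rbpj (-0.15 ± 0.05). The effector Hes5, which Notch induces in neural progenitors, was at 14.1 ± 3.78 scaled CPM in TB and at most 0.618 in the mean of any other group, with a log2 fold change of 3.77 ± 0.30 against BA. The receptor Notch1 was higher by 1.16 ± 0.07, and the effector Heyl by 1.35 ± 0.23. Hes1, a Hes repressor expressed in many tissues, differed by 0.30 ± 0.10 from BA (adjusted p 0.0107) and by -0.04 ± 0.11 from E10.5 HLB (adjusted p 0.810).

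**Figure D3:**
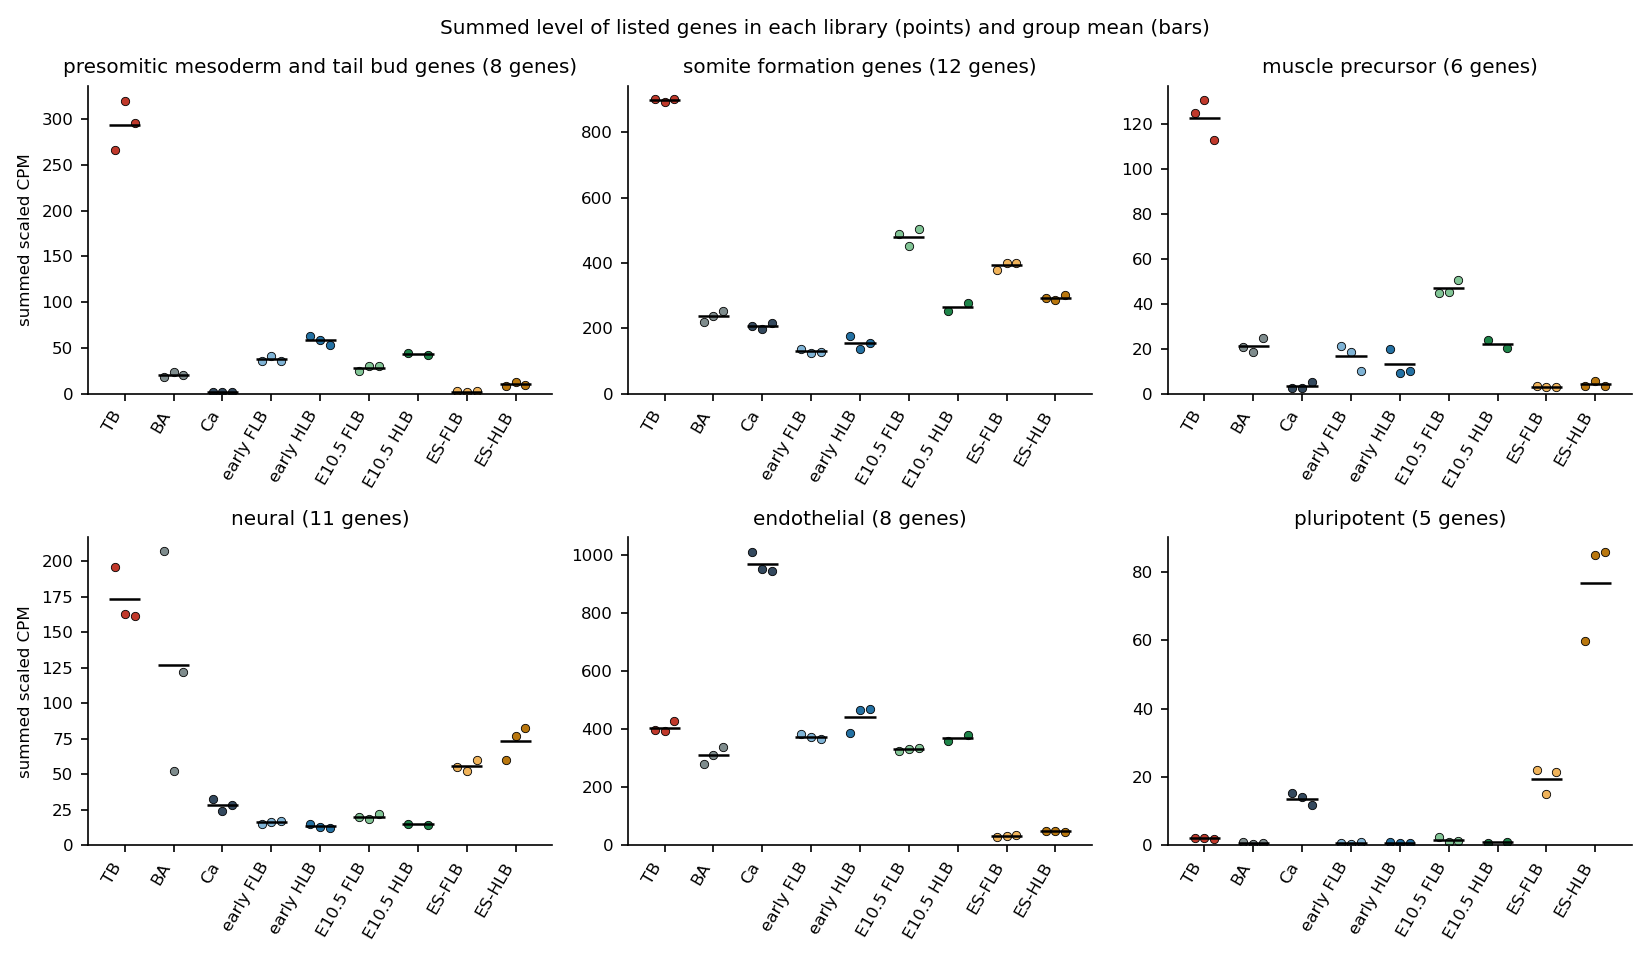
Summed scaled CPM of 6 gene lists in each library (points) with group means (bars), on linear axes that start at 0. TB leads the presomitic, somite and muscle precursor lists, BA replicate 2 falls below the other BA libraries in the neural list, E10.5 FLB exceeds E10.5 HLB in the somite and muscle lists, and both ES-derived groups are low in the endothelial list.

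The next question was whether the ES-derived cells match the early limb buds, which the study used as their counterparts. Only Lfng, Dll1 and Nrarp reached the filter here. Hes7, Dll3, Mesp1, Mesp2 and Ripply2 were not tested. In ES-FLB against early FLB, Lfng was lower by a log2 fold change of -1.60 ± 0.20 (adjusted p 1.35e-06) and Nrarp by -1.16 ± 0.14 (adjusted p 7.63e-07). Lfng was at 0.730, 1.04 and 1.33 scaled CPM in ES-FLB and at 3.55, 4.82 and 3.97 in early FLB. Nrarp was at 3.41, 3.90 and 3.76 against 8.24, 8.92 and 9.45, so that neither gene's libraries overlapped. Dll1 was at 2.80, 3.12 and 3.28 against 2.78, 2.03 and 2.66, a difference of 0.26 ± 0.18 that missed the threshold (adjusted p 0.180). With the CPM as deposited it was 0.46 (adjusted p 0.0238), and the range of adjusted p over all alternatives was 0.0238 to 0.505. Over all genes, 40.3% of 13122 were called higher and 41.8% lower, so that a call was common in this comparison. Of the calls 49.1% were higher, and 62.4% with the CPM as deposited, which moved the median of all genes by 0.24.

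In ES-HLB against early HLB all 3 genes were lower: Lfng by -0.86 ± 0.17 (adjusted p 0.000330), Dll1 by -1.002 ± 0.19 (adjusted p 0.000204) and Nrarp by -0.90 ± 0.13 (adjusted p 9.70e-06). Lfng was at 1.91, 1.97 and 2.15 scaled CPM in ES-HLB and at 3.82, 3.83 and 4.57 in early HLB. Dll1 was at 1.14, 1.27 and 1.43 against 3.52, 2.62 and 3.09, and Nrarp at 7.89, 9.15 and 7.76 against 17.2, 13.7 and 16.5. No ES-HLB library reached the lowest early HLB library for any of the 3. Of 13179 genes, 38.5% were called higher and 39.9% lower, and the share of calls that were higher went from 49.1% to 60.6% with the CPM as deposited, which moved the median by 0.18.

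The ES-derived cells were sorted and the embryonic limb buds were not, so this step and the culture cannot be told apart. Nor can either be told apart from a difference between the libraries, which hold 6569901 to 7879879 reads for ES-derived cells and 19642275 to 22142313 for early buds. The 8 endothelial markers summed to 28.7 to 33.7 scaled CPM in ES-FLB and 44.4 to 50.5 in ES-HLB, against 366 to 383 in early FLB and 388 to 470 in early HLB. All 8 were called lower in both comparisons. Of the other Notch pathway genes, 10 of 20 tested were higher and 7 lower in each comparison. Over all genes the shares were 40.3% and 41.8% for ES-FLB, and 38.5% and 39.9% for ES-HLB. Dll4, the ligand of arterial endothelium, was lower by -2.94 ± 0.17 in ES-FLB and -2.50 ± 0.27 in ES-HLB, the ligand Jag2 by -3.21 ± 0.11 and -2.53 ± 0.10, and the Lfng relative Mfng by -2.69 ± 0.19 and -3.05 ± 0.18. Notch1 was higher by 1.25 ± 0.09 and 0.97 ± 0.06 and the ligand Jag1 by 2.12 ± 0.09 and 0.80 ± 0.12. The 6 surface ectoderm markers summed to 95.6 to 144 in ES-FLB against 327 to 418 in early FLB, with 5 lower, and to 183 to 194 in ES-HLB against 294 to 348 in early HLB, with 4 lower and 1 higher. All 5 pluripotent markers were higher in both comparisons. The part of any of these cell types in the lower Lfng and Nrarp was not tested. Dll3 lay higher in the ES-derived cells than in the early buds, at 0.608, 0.520 and 1.21 scaled CPM in ES-FLB and 1.27, 0.704 and 0.836 in ES-HLB, where no early limb bud library passed 0.261. These are 4 to 10 reads per ES-derived library, and 3 to 5 per early library, without a test. The 11 neural markers summed to 52.2 to 60.1 in ES-FLB against 15.3 to 17.2 in early FLB. In ES-HLB they summed to 60.3 to 82.7 against 12.4 to 14.8 in early HLB. In each comparison 4 of 5 tested were higher. Their part in the Dll3 level was not tested.

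**Figure D4:**
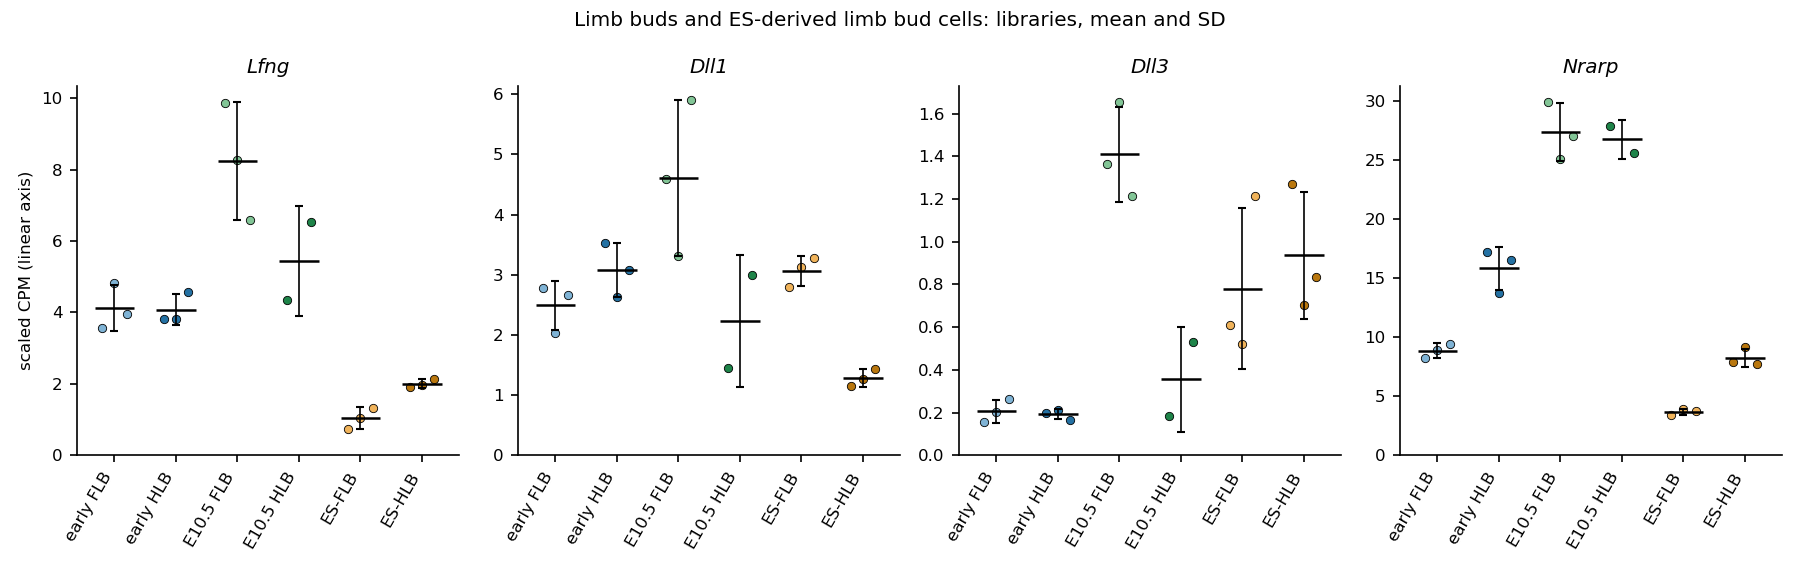
Scaled CPM (linear axes from 0) of Lfng, Dll1, Dll3 and Nrarp in each library of the limb bud and ES-derived groups, with mean and SD. Lfng and Nrarp are lowest in ES-FLB, Dll1 is lowest in ES-HLB, and Lfng, Dll1 and Dll3 peak in E10.5 FLB.

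Between the limb types made in vitro, Nrarp was higher in ES-HLB than in ES-FLB by 1.06 ± 0.17 (adjusted p 5.99e-06) and Dll1 lower by -1.002 ± 0.23 (adjusted p 0.00132). Lfng was higher by 0.73 ± 0.26 with an adjusted p of 0.0403, and without any one of ES-FLB replicates 1 and 2 or ES-HLB replicates 1, 2 and 3 its adjusted p was 0.0764 to 0.162 (0.00482 to 0.162 over all alternatives). Libraries of the 2 groups did not overlap for any of the 3 genes. Called higher were 12.3% of 13132 genes and lower 12.4%. The 5 pluripotent markers summed to 15.1 to 22.0 scaled CPM in ES-FLB and to 59.8 to 85.8 in ES-HLB. This sum was higher in ES-HLB like Nrarp and Lfng and unlike Dll1, as was the endothelial sum. The surface ectoderm sum was 95.6 to 144 in ES-FLB and 183 to 194 in ES-HLB, with 4 of 6 markers higher, and the branchial arch mesenchyme sum 27.0 to 29.4 and 47.5 to 49.7, with 3 of 6 higher. Their part was not tested. The Notch effector Heyl was lower in ES-HLB by -1.12 ± 0.21, like Dll1, and Hes1 by -0.39 ± 0.08.

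Between the early limb buds, Nrarp was higher in HLB by 0.80 ± 0.11 (adjusted p 0.000522). Dll1 differed by 0.26 ± 0.17 (adjusted p 0.322) and Lfng by -0.01 ± 0.15 (adjusted p 0.983). Called higher were 9.08% of 12516 genes and lower 11.2%, with 44.7% of the calls higher and 61.8% with the CPM as deposited. Limb type and stage cannot be told apart in this pair, as the paper gives them different stages. The endothelial sum was 388 to 470 in early HLB and 366 to 383 in early FLB.

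To ask whether the limb types differed alike in vitro and in vivo, the difference between ES-HLB and ES-FLB was set against that between the early buds. In vitro, limb type cannot be told apart from the RA or RA antagonist given. In the early buds it cannot be told apart from stage. For Dll1 the differences had opposite signs, and their contrast was -1.26 ± 0.25 (adjusted p 0.000976). For Nrarp both were positive and the contrast was 0.27 ± 0.18 (adjusted p 0.333). For Lfng it was 0.73 ± 0.26 with an adjusted p of 0.0502, just over the threshold. Under 6 alternatives Lfng passed, as with median of ratios scaling (0.0494) or without ES-FLB replicate 3 (0.0246), and the range over all alternatives was 0.0246 to 0.135. Called higher were 12.5% of 13616 genes and lower 10%, with 55.4% of calls higher and 44.5% with the CPM as deposited.

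The last question was how the limb buds change from the early stage to E10.5. Early libraries hold 19642275 to 22142313 reads and those of E10.5 5543747 to 5908859. Stage and this difference between the libraries cannot be told apart. In forelimb buds Lfng rose by 0.91 ± 0.17 (adjusted p 0.000166), Dll1 by 0.75 ± 0.21 (adjusted p 0.00475) and Nrarp by 1.57 ± 0.11 (adjusted p 5.37e-10). Lfng was at 9.88, 8.26 and 6.59 scaled CPM in E10.5 FLB, Dll1 at 4.60, 3.30 and 5.90, and Nrarp at 30.0, 25.1 and 27.1. Each of these libraries lay above all early FLB libraries. The somite formation genes moved with them, from 124 to 137 summed scaled CPM in early FLB to 451 to 504, with 6 of 8 tested higher and 1 lower. The muscle precursor markers did so too, from 10.2 to 21.1 to 45.0 to 50.7, with 4 of 6 higher. Of these 6, only 3 reached the filter between the early limb buds. The rest needed E10.5 FLB libraries to pass it and could hardly have gone the other way, so the muscle count is a description. The somite list does not stand for somites alone, as 3 of its 11 genes tested were lower in TB than in E10.5 FLB and 8 higher. The part of either list was not tested. Dll3 was at 1.36, 1.65 and 1.21 (8, 10 and 7 reads) against 0.155, 0.203 and 0.261, with a difference of 1.43 ± 0.26 (adjusted p 0.000124), but it passed the filter only through E10.5 FLB and so had to differ. Called higher were 29.0% of 12779 genes and lower 36.1%. Calls that were higher made up 44.6%, and 66.0% with the CPM as deposited, which moved the median by 0.19.

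In hindlimb buds Nrarp rose by 0.74 ± 0.12 (adjusted p 0.00123). It was at 27.9 and 25.6 scaled CPM in E10.5 HLB, above the 13.7 to 17.2 of early HLB. Lfng differed by 0.36 ± 0.21 (adjusted p 0.224) and Dll1 by -0.44 ± 0.27 (adjusted p 0.244). The 2 Dll1 values, 1.45 and 3.002 (8 and 17 reads), lie far apart. Called higher were 11.5% of 12401 genes and lower 17.6%, with 39.5% of the calls higher and 56.2% with the CPM as deposited.

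The stage difference was lower in hindlimb than in forelimb buds for Nrarp, by -0.83 ± 0.16 (adjusted p 0.00109), and for Dll1, by -1.19 ± 0.35 (adjusted p 0.0190). For Dll1 the adjusted p was 0.0520, 0.0562 and 0.151 without early FLB replicate 2, E10.5 FLB replicate 3 or E10.5 HLB replicate 1, and 0.0524 without trend and robust estimation (0.00303 to 0.151 over all alternatives). Dll3 stood at -1.15 ± 0.40 (adjusted p 0.0449), again passing the filter only through E10.5 FLB, and lost the call without early FLB replicate 1, 2 or 3, early HLB replicate 1, 2 or 3, or E10.5 HLB replicate 1 (0.0646 to 0.176), with all 26 libraries (0.156) and with a pseudocount of 0.1 (0.0813; 0.00937 to 0.176 over all alternatives). Lfng was at -0.56 ± 0.28 (adjusted p 0.154). Called higher were 13.0% of 12992 genes and lower 10.2%, and higher calls went from 56.0% to 29.0% with the CPM as deposited, which moved the median by -0.12. As the early buds differ in stage by the paper, the interval between stages and the limb type cannot be told apart.

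At E10.5 itself, Dll1 was lower in HLB than in FLB by -0.93 ± 0.28 (limma, adjusted p 0.0103) and Lfng by -0.56 ± 0.21 (adjusted p 0.0430). Dll3 stood at -1.18 ± 0.40 (adjusted p 0.0242), but it passed the filter only through E10.5 FLB. It thus had to lie lower in HLB, and its value is a description. Nrarp was alike in level, at 27.9 and 25.6 against 25.1 to 30.0, with a difference of -0.03 ± 0.11 (adjusted p 0.885). These calls rest on 2 HLB libraries. Without E10.5 HLB replicate 1 adjusted p was 0.290 for Dll1, 0.471 for Lfng and 0.190 for Dll3. Without E10.5 FLB replicate 3 Dll1 missed the threshold (0.0900), and without E10.5 FLB replicate 1 or 2 Lfng did (0.210 and 0.0919). Without trend and robust estimation Dll1 was at 0.146 and Lfng at 0.183, and with all 26 libraries Lfng was at 0.0509. Dll3 was not tested without E10.5 FLB replicate 1, 2 or 3, as it passed only through them. Over all alternatives adjusted p was 0.000495 to 0.290 for Dll1, 0.00888 to 0.471 for Lfng and 0.00330 to 0.190 for Dll3. Called higher were 13.3% of 12574 genes and lower 11.5%, and higher calls made up 53.5%, or 31.1% with the CPM as deposited.

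The sums of the listed somite formation and muscle precursor genes moved with Dll1 and Lfng at E10.5. The 12 somite formation genes summed to 451 to 504 scaled CPM in E10.5 FLB and 252 to 278 in E10.5 HLB, and 6 of 8 tested were lower in HLB. This sum does not stand for somites alone. Of 11 of these genes tested, 8 were higher and 3 lower in TB than in E10.5 FLB. The lower ones were Tbx18 (-3.76 ± 0.20), Meox2 (-0.995 ± 0.22) and Epha4 (-0.65 ± 0.09). Ripply1 and Cer1 had no reads in either E10.5 limb bud. Pax1, a gene of the ventral somite, was at 44.3 ± 7.35 against 4.48 ± 0.846, with a log2 difference of -3.17 ± 0.14. The 6 muscle precursor markers summed to 45.0 to 50.7 against 20.1 to 24.0, with 4 of 5 tested lower and Myod1 at 8.91 ± 2.65 against 0.265 ± 0.375. Myod1 passed the filter only through E10.5 FLB and so had to lie lower in HLB. Between E10.5 HLB and early HLB only 2 of the 6 muscle markers reached the filter. The count of muscle markers is therefore a description. Of 20 other Notch pathway genes 5 were lower in HLB, beside 11.5% of all genes, among them Heyl by -1.08 ± 0.22 and Jag1 by -0.83 ± 0.10. The part of somite or muscle tissue in the forelimb libraries was not tested.

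**Figure D5:**
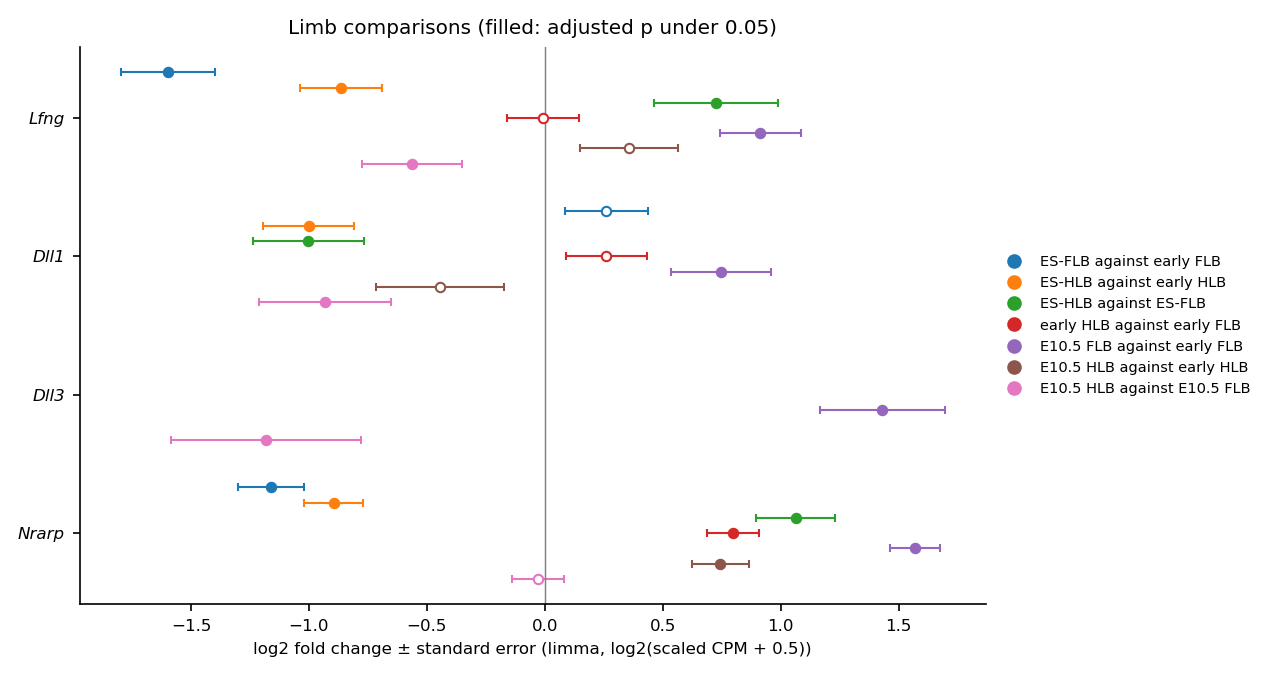
Log2 fold change with standard error of Lfng, Dll1, Dll3 and Nrarp in 7 comparisons of limb buds and ES-derived cells (colours), where filled points have an adjusted p under 0.05 and Dll3 was tested in 2. Nrarp lies above 0 for both stage comparisons and near 0 between the E10.5 limb buds, and Dll1 lies below 0 for ES-HLB against both ES-FLB and early HLB.

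Across the 9 group means of log2(scaled CPM + 0.5), the non-member gene most like Ripply2 among 12703 genes was Msgn1 (Pearson r 1.00). For Dll3 it was Wnt3a (0.99), a ligand of the tail bud, followed by Tbx6 (0.98) and Hes5 (0.98), and for Hes7 it was the tail bud factor Cdx4 (0.98). Mesp1 came closest to Olig2 (1.00) and Mesp2 to Fam181a (0.99). Lfng came closest to Wnt4 (0.96), Dll1 to the planar polarity gene Celsr1 (0.95) and Nrarp to Rassf2 (0.93). These values rest on TB standing apart in every gene compared, and of the 24 genes in the lists of 3 for each member, 2 were among the highest 3 by rank correlation. Among the members, Lfng and Nrarp had an r of 0.95 over the 9 groups and 0.90 over the 8 groups other than TB, where the other pairs of members ranged from -0.77 to 0.68.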

How the data were processed

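RNA of 27 libraries in 9 groups was measured by stranded, single-end mRNA sequencing. Per the paper and the submitters' processing notes, the authors checked reads with FastQC 0.11.5, mapped them to mm10 with HISAT2 2.0.4, estimated counts per gene with Cuffdiff, passed them to edgeR 3.16.2, and deposited CPM, which sum to 1000000 in each library. Values in steps of 1 read gave the depth of each library (93.1% to 99.1% of values whole within 0.05 reads). That share was 93.1% to 93.6% in the early limb bud libraries and 98.7% to 99.1% in all others. As some values are fractional, no count test was run.

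The 8 members and the gene lists were chosen with earlier results of these data known. CPM of 26 libraries were scaled by an unweighted trimmed mean of log ratios (30% of ratios, 5% of levels trimmed). Tests covered genes that reached 1 scaled CPM in 3 or more fitted libraries, using log2(scaled CPM + 0.5) and limma 3.58.1 (trend, robust) in R 4.3.3, with Benjamini-Hochberg adjustment over all genes tested and a threshold of 0.05. TB comparisons used all 26 libraries, and others only their own. Named beside the members are genes of 4 pathway and 8 marker lists where counted, and for each member the 3 non-member genes of highest r over group means among those reaching 4 scaled CPM. The genes named in BA replicate 2 were chosen after their values were seen. Scripts were tested on simulated data. Alternatives were other scalings, no filter, other pseudocounts, other sets of libraries (among them the incomplete E10.5 HLB library for the chromosomes it holds), a replicate block, each library left out, and limma without trend and robust. Figures and counts were made with Python 3.11.15 and matplotlib 3.10.9. Protein sequences were not used here.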

Additional observations from a re-analysis of the deposited data

Results flagged for a closer look

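Groups of different limb type differed in 3 results, by tests of the difference itself. Limb type cannot be told apart from the RA or RA antagonist given in vitro, or from stage in the early buds. For Dll1 the log2 difference of ES-HLB from ES-FLB was -1.002 and that of early HLB from early FLB 0.26, which missed the threshold alone, with a contrast of -1.26 (limma, adjusted p 0.000976). The change from the early stage to E10.5 was lower in hindlimb than in forelimb buds for Dll1 (-1.19) and Nrarp (-0.83), with adjusted p of 0.0190 and 0.00109. Over all alternatives adjusted p was 0.00303 to 0.151 for Dll1, which lost the call under some, and 0.000302 to 0.00928 for Nrarp. Dll3 was at -1.15 (adjusted p 0.0449, range over alternatives 0.00937 to 0.176), but the E10.5 FLB libraries, where it was high, alone brought it past the filter on low values, so its value is given as a description.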

How the results depend on the processing

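Of 992 fold changes of members recomputed under alternatives, 955 kept their direction and side of the threshold, 30 lost and 7 gained a call, and none that was called reversed. For Dll1, Dll3, Lfng and Nrarp, the 4 members that passed the filter without TB, all 292 values of TB kept their calls, with log2 values from 1.56 to 8.13. The other members passed it through TB, where they were high, so their kept calls say nothing of stability. Members called in each TB comparison ranged from 5 to 8 when 1 library was left out, as fewer libraries met the filter. Between the E10.5 limb buds, 3 members were called, 1 under the replicate block, 1 without trend and robust, and 0 to 3 with 1 library left out (0 at an unadjusted p under 0.05 where limma called 0). The replicate block ended the calls of Lfng (adjusted p 0.0587) and Dll3 (0.0708) there, and that of Dll3 in the stage difference (0.0658). In both comparisons Dll3 passed the filter only through E10.5 FLB, so its calls are descriptions. For the limb type difference in vitro against in vivo, 1 was called, and 2 with median of ratios scaling, a pseudocount of 0.1, all 26 libraries, the replicate block, or no trend and robust, and 1 to 2 with 1 library left out. For the stage difference it was 1 to 3. The causes were not tested. Same-numbered libraries shared only a number, with correlations of deviations from -0.088 to 0.101 over 13 pairs of groups, and the replicate block left the other member counts within 1.5 times. A count test planned on recovered reads was not run. Outside TB, Mesp1, Mesp2 and Ripply2 had at most 4 reads and Hes7 at most 12 in any library.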

Other observations

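Feedback genes of Wnt and FGF signalling that are known to oscillate beside the Notch members were also present at high levels in groups other than TB and Ca. Of 10 such genes, 9 were higher and 1 lower in TB than in Ca (median log2 difference 1.59, beside 37.8% and 35.7% of all genes), and 7 were higher than in BA (0.63, 22.4% and 22.1%). Against E10.5 FLB 4 were higher and 3 lower (0.27, 23.3% and 22.3%), and against the ES-derived cells 3 higher and 5 lower (-0.27, 38.7% and 37.4%). Their sum was 660 to 697 scaled CPM in TB, 255 to 281 in Ca and 441 to 780 in the other groups. Axin2, an inhibitor in the Wnt pathway, was at 101 ± 3.86 scaled CPM (SD, n = 3) in TB and at 167 ± 15.2 in ES-HLB. Dusp4, a phosphatase that FGF signalling induces, was at 79.9 ± 5.24 in TB and at most 42.1 in the mean of any other group, and Sp5, a Wnt target, at 21.9 ± 1.91 against at most 9.26.

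The spread of the members among TB libraries was set beside that of genes of like level. Mesp2, with 40, 53 and 68 reads, had a CV of 22.2%, above 85.7% of 1395 genes of like mean level (within 1.5 times). Hes7 had one of 11.8%, above 72.0% of 2075. Mesp1 had the highest CV, 23.9%, which lay above 45.6% of 1031 genes. Ripply2 had a CV of 2.82%, above 2.72% of 1178 genes, and for Dll1, Dll3, Lfng and Nrarp it was 2.00% to 4.02%. With 3 libraries these are descriptions.

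The E10.5 HLB library that was left out has values for 3 members, of 0.359 scaled CPM for Hes7, 2.15 for Dll1 and 20.4 for Nrarp, which are 0.546, 3.28 and 31.1 CPM as deposited.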
